A study of Mus musculus with 6 samples.

Results

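Interferon-stimulated genes are genes whose transcription is switched on when a cell senses an interferon. Here 39 of them were taken from a table of 54385 mouse genes by their symbols, as targets of type I and type II interferons. All 39 had a row, and 35 passed the filter on low counts that 14767 genes of the table passed. The libraries were made from polyadenylated RNA of interscapular brown fat, a depot between the shoulder blades that burns fuel for heat, in 6 C57BL/6N mice fed chow for 20 weeks and kept at 5 °C for the last 24 hours. In 3 knockout mice (Adcy3-FL/FL/Adipoq-wt/cre) the floxed alleles of Adcy3, which encodes the cyclic AMP-producing enzyme adenylyl cyclase 3, were combined with Adipoq-Cre, a recombinase driven by an adipocyte promoter. The 3 controls (Adcy3-FL/FL/Adipoq-wt/wt) carried the floxed alleles without Cre, so that an effect of Cre itself and one of the deletion cannot be told apart here. Other cells of the fat pad keep the floxed alleles, and the tissue was sequenced in bulk, where fewer cells of a type and less RNA per cell cannot be told apart.

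Type I interferons bind the receptor chains Ifnar1 and Ifnar2, whose kinases Jak1 and Tyk2 activate Stat2 in the cytoplasm. Stat2 and Irf9 are parts of a complex that binds the interferon-stimulated response element (ISRE) in promoters. Interferon gamma, the type II interferon, binds Ifngr1 and Ifngr2, and its signal reaches promoters at gamma-activated sites (GAS). The induced proteins sense viral RNA, block its translation or copying, mark proteins with the ubiquitin-like Isg15, and process antigens for display. In fat, adipocytes as well as macrophages and endothelial cells can respond to interferons.

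The total estimated count per library was between 13956786 and 17538044, and levels are given as counts per 1000000 (CPM) after scaling. Adcy3 itself (chromosome 12, 4133103 to 4213525) had 21.9, 30.3 and 24.0 CPM in the knockouts, numbered 1 to 3, against 135, 169 and 158 CPM in the controls. The groups did not overlap. Adcy3 fell by 2.60 on the log2 scale (adjusted p = 0.00146 by edgeR's quasi-likelihood test). Of 9 brown adipocyte markers Ucp1, the uncoupling protein of brown fat, was the most abundant in all libraries, between 5398 and 7592 CPM. Prdm16 was the lowest of them, between 13.3 and 30.8 CPM. Skeletal muscle markers set the libraries apart: their summed level was 9770, 738 and 103 CPM in knockouts, against 21230, 19410 and 15480 CPM in controls. Of these 20 markers 18 had all knockouts below all controls, against 10.8% of all tested genes, and none was called. The part of muscle in the members' values was not tested.

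Promoter sequences of 29 members were found in the RefSeq promoter table (build GRCm38.p6), which runs from 250 bases before to 50 bases after a gene's start. The 10 others were Dhx58, Zbp1, Usp18, Oas2, Mx1, Mx2, Ifi27, Rtp4, Parp9 and Parp14. The ISRE core, which is GAAA, any 2 bases and GAAA again, read on both strands, was present in 15 of the 29 members (51.7%), against 1079 of 27025 genes in the table (3.99%). The GAS core TTCNNNGAA, which reads the same on both strands, was present in 9 of the 29 (31.0%), against 9.55% of all genes. Of these members 4 held both, and a match of one overlapped a match of the other in Bst2. A match is a run of letters and not a measured binding site. The stretches of 7 members are shown because their levels are described further on and because they hold the element in its single, paired and overlapping forms. Each is written 5′ to 3′ along the gene's own strand, with every match of the ISRE core or its reverse complement in capitals.
Ifit3 (chr19:34583353-34583436, plus strand): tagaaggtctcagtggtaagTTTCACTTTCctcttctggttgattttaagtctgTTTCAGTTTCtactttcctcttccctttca
Ifit1 (chr19:34640765-34640833, plus strand): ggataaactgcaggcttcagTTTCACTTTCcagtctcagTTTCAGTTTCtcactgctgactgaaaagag
Isg15 (chr4:156200855-156200916, minus strand): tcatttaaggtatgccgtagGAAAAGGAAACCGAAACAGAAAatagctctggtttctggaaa
Bst2 (chr8:71537567-71537622, minus strand): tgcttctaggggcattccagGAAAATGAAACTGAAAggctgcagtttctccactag
Igtp (chr11:58199502-58199551, plus strand): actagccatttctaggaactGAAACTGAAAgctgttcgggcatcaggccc
Gbp7 (chr3:142530263-142530312, plus strand): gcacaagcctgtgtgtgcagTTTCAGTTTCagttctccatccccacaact
Stat2 (chr10:128270256-128270305, plus strand): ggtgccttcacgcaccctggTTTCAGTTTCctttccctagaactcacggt
Ifit3 and Ifit1 carry a pair of separate matches, and Isg15 carries 3 that run into each other. In Igtp the match begins 34 bases before the start, and in Stat2 it begins 222 bases before it.

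Most members were expressed at a low level, and 1 stood far above the rest. Ifi27, a small interferon-induced protein found in mitochondria, made up 82.5%, 79.3% and 80.5% of the members' summed CPM in knockout libraries 1 to 3, against 72.6%, 76.3% and 72.9% in control libraries 1 to 3. Per kilobase of exon, Ifi27 averaged 668 CPM over the 6 libraries and lay above 99.6% of tested genes. The next member was Bst2, a membrane protein that tethers virus particles, at 17.6 CPM per kilobase. The median of the 35 tested members was 1.86 CPM per kilobase, against 2.66 for all tested genes, and 11 of the 35 lay above that value. The lowest tested member was Ifi44, a cytoplasmic interferon-induced protein, at 0.404 CPM per kilobase.

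**Figure D1:**
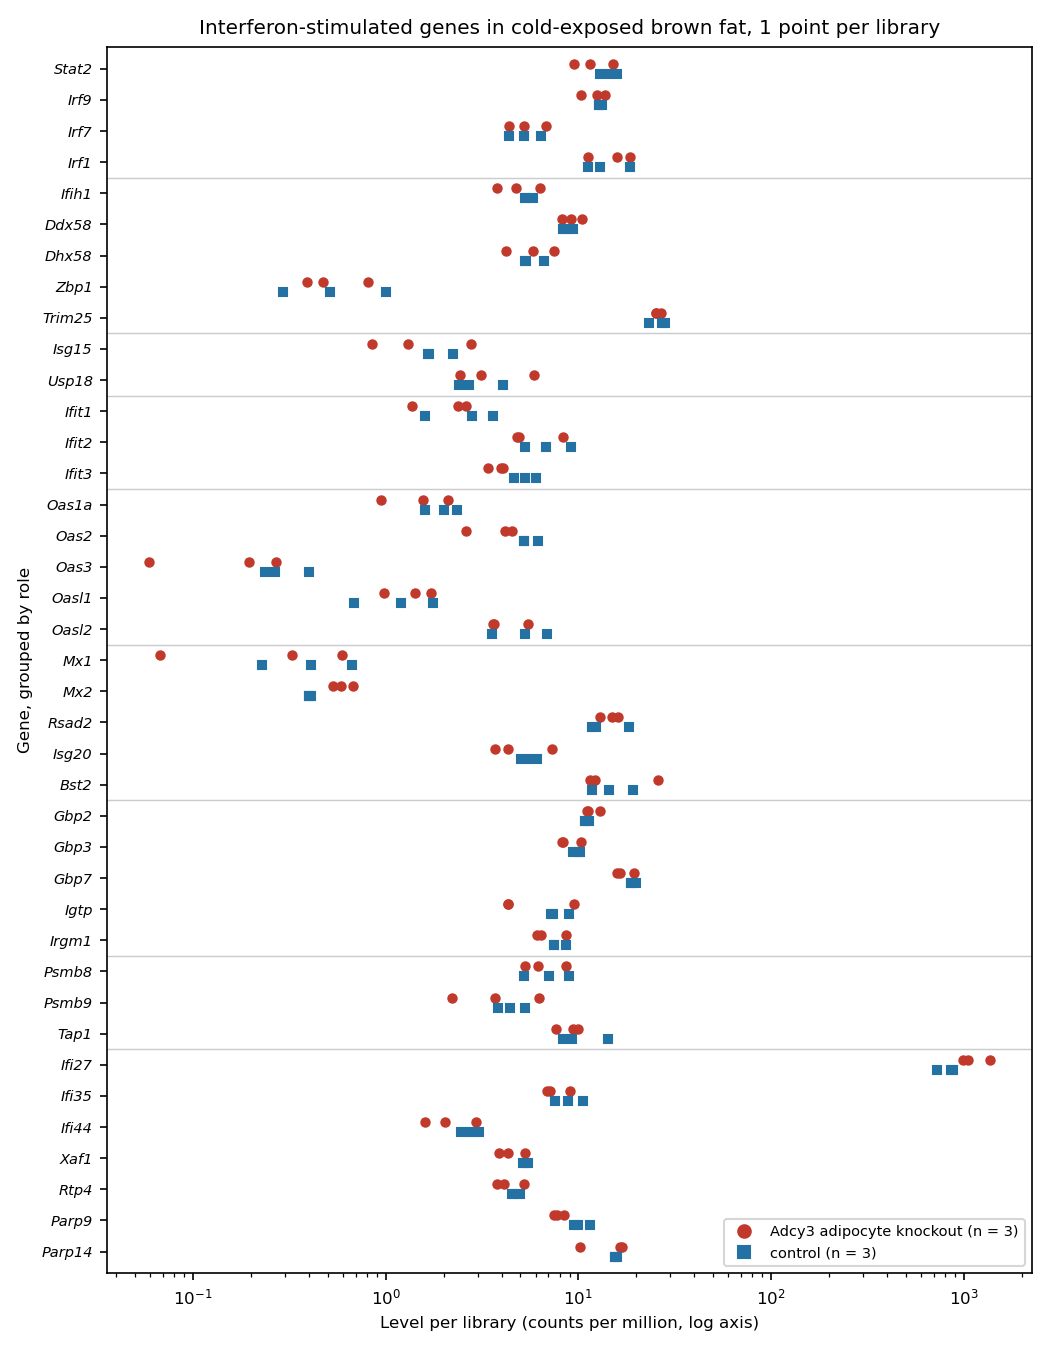
Level of each of the 39 interferon-stimulated genes in CPM on a log axis, 1 point per library, with the 3 knockout libraries as circles and the 3 control libraries as squares, and the genes grouped by role. Ifi27 lies between 727 and 1368 CPM in all libraries, whereas no other member exceeds 28.3 CPM.

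No interferon-stimulated gene passed the test between genotypes, in either direction. Of the 35 tested members 0 were called higher and 0 lower by edgeR's quasi-likelihood test, with the adjusted p held under 0.05 by the Benjamini-Hochberg method over all tested genes. Of all tested genes 0.0609% were called, 0.0271% higher and 0.0339% lower. DESeq2 and limma-voom also called 0 members, with 2.08% of all tested genes called by DESeq2 (0.21% higher, 1.87% lower) and 0.223% by limma-voom (0.0406% higher, 0.183% lower). With no filter on low counts edgeR called 0 of the 39, and 2.8% of all genes with a count (0.348% higher, 2.45% lower). At an unadjusted p under 0.05, 1 member was higher and 2 were lower, against 2.87% of all tested genes higher and 7.6% lower. The median log2 fold change, knockout over control, was -0.15 for the members and 0.01 for all tested genes. With single libraries left out the members' median ran from -0.21 (without control library 2) to -0.08 (without knockout library 3). A negative value was found for 25 of 35 members (71.4%), against 48.3% of all tested genes. The groups did not overlap for 4 tested members (11.4%), against 18.4% of all tested genes. Ifi27 was the 1 with knockouts above controls (7.63% of all genes), and Ifit3, Oas2 and Parp9 were the 3 below (10.8%).

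With knockout library 1 left out, 1 member, Igtp, was called lower, where 5.64% of all tested genes were called (0.296% higher, 5.35% lower). Its omission left 11 members (31.4%) with both remaining knockouts below all controls, against 18.9% of all genes, and 2 members above all controls, against 15.3%. The median 95% interval of a member reached 0.54 to each side of its log2 fold change, and that interval is for the unadjusted test, so that larger changes could also fail after adjustment. Tested members had 12 counts (Oasl1) to 20206 counts (Ifi27) per library, and the median of their mean counts was 109.

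**Figure D2:**
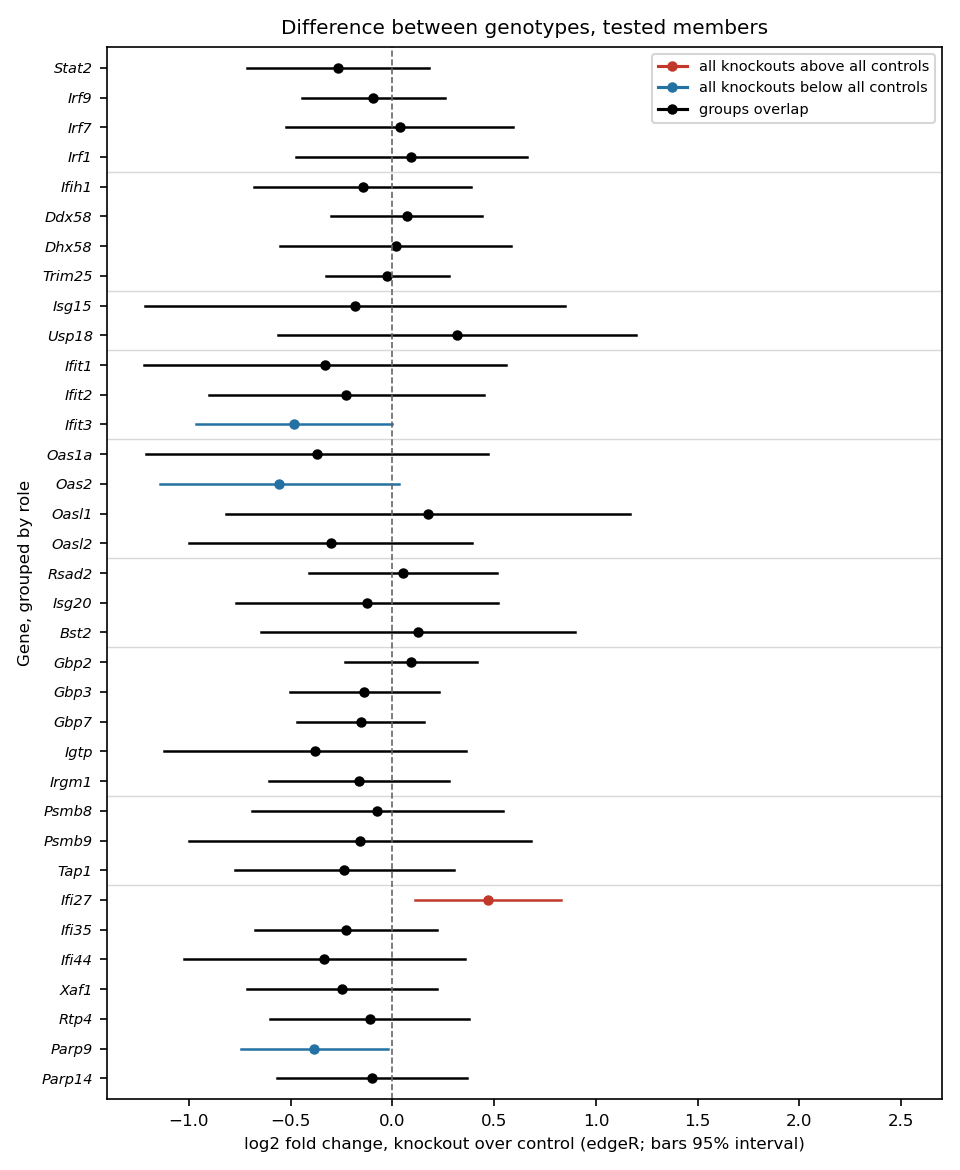
Log2 fold change of the 35 tested members, knockout over control, with 95% intervals from the edgeR fit as bars and genes grouped by role. Ifi27 at 0.47 is the only tested member whose knockouts all lie above all controls, Ifit3, Oas2 and Parp9 are the members whose knockouts all lie below them, and no member passed after adjustment.

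Ifi27 (ENSMUSG00000064215, chromosome 12, 103434211 to 103440239) had the smallest p of the members. Knockouts had 1368, 992 and 1056 CPM, against 727, 863 and 875 CPM in controls. Every knockout library lay above every control library, and knockout library 1 was the highest. Its means were 1139 ± 201 CPM in knockouts and 822 ± 82.2 CPM in controls (SD, n = 3 each), a ratio of 1.39. Its log2 fold change was 0.47 ± 0.16 (SE, edgeR adjusted p = 0.339), and it lay between 0.32 and 0.56 in all 13 alternatives, with adjusted p from 0.0901 to 0.775. The summed level of 9 brown adipocyte markers also separated the groups. It stood at 17810, 15610 and 16700 CPM in knockouts, against 13350, 13690 and 13920 CPM in controls. Ucp1 and Fabp4 together made up most of this sum in every library. Ucp1 alone stood at 7161, 7111 and 7592 CPM in knockouts, against 5398, 6008 and 5850 CPM in controls. Only 3 of the 9, Ucp1, Cidea and Elovl3, had all knockouts above all controls, against 7.63% of all tested genes. The groups of the others overlapped, Adipoq among them, and none of the 9 was called. The part of this sum in the value of Ifi27 was not tested.

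The 4 transcription factors of the response overlapped between genotypes. Irf1, a factor induced early by interferon gamma, stood at 18.5, 11.2 and 15.9 CPM in knockouts, against 13.0, 11.2 and 18.6 CPM in controls. Its libraries spread over the same range in both groups (log2 fold change 0.09 ± 0.25, SE). Irf7, which amplifies the type I response, stood at 0.04 ± 0.24 (log2, SE), and Irf9, the DNA-binding partner of Stat2, at -0.09 ± 0.15. Stat2 stood at 9.54, 15.1 and 11.5 CPM in knockouts, against 13.0, 14.5 and 15.95 CPM in controls. Knockout libraries 1 and 3 were below all controls and library 2 was among them, which gave a log2 fold change of -0.27 ± 0.19 (SE).

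The sensors of foreign nucleic acid, listed together with their partner Trim25, had 2 positive and 2 negative log2 fold changes in 4 tested genes, with a median of -0.0042. Trim25, a ubiquitin ligase that acts with the RNA sensor Ddx58, stood at 26.8, 25.2 and 25.4 CPM in knockouts, against 23.1, 27.3 and 28.3 CPM in controls. Its knockout libraries differed by an SD of 3.42% of their mean, the smallest of the tested members, and its 95% interval ran from -0.32 to 0.28 (log2). Ddx58, which encodes the sensor RIG-I, stood at 0.07 ± 0.16 (log2, SE). Ifih1, which encodes the sensor of long double-stranded RNA MDA5, stood at -0.15 ± 0.23, and Dhx58, their regulator LGP2, at 0.02 ± 0.25. Zbp1, a sensor of nucleic acids in the Z form, had 12, 6 and 8 counts in knockouts, against 5, 9 and 15 in controls, and was too low to be tested.

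Both genes of the Isg15 system were spread widely among the knockouts. Isg15, the ubiquitin-like modifier, stood at 2.77, 0.848 and 1.31 CPM in knockouts, against 2.24, 1.66 and 1.68 CPM in controls. Its knockout SD was 61.3% of the mean, the largest of the tested members, and knockout library 1 was the highest of all 6 while the other 2 knockouts were the lowest. Usp18, the protease that removes Isg15 and dampens the type I receptor, stood at 5.89, 3.13 and 2.44 CPM in knockouts, against 2.42, 2.69 and 4.09 CPM in controls. Knockout library 1 was again the highest, and the log2 fold changes were 0.32 ± 0.38 for Usp18 and -0.18 ± 0.45 for Isg15 (SE). Without knockout library 1 both were negative, at -0.13 and -0.78.

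The IFIT proteins, which bind viral RNA and limit its translation, all had negative log2 fold changes without passing. Ifit3 (chromosome 19, 34583531 to 34588731) stood at 3.38, 4.04 and 3.98 CPM in knockouts, against 5.30, 4.64 and 6.03 CPM in controls. All knockouts lay below all controls, with a log2 fold change of -0.48 ± 0.21 (SE, edgeR adjusted p = 0.477), and between -0.59 and -0.40 in 13 alternatives. Its transcript matched that of Ifit3b at 97.8% identity over 1700 bases, so that reads of the pair may have been divided by estimation. Ifit3b stood at 1.96, 1.04 and 1.43 CPM in knockouts, against 1.06, 1.72 and 2.01 CPM in controls, with overlapping groups. Ifit2 stood at 4.94, 4.82 and 8.31 CPM in knockouts, against 6.83, 5.27 and 9.12 CPM in controls (-0.23 ± 0.29, log2, SE). Ifit1 stood at -0.33 ± 0.39 (log2, SE), and the groups of both overlapped. With single libraries left out, Ifit2 ran from -0.53 (without knockout library 3) to -0.03 (without control library 3), and Ifit1 from -0.62 (without control library 2) to -0.07 (without control library 1).

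Of the oligoadenylate synthetase family, some of which activate an antiviral ribonuclease, 3 of 4 tested genes had negative log2 fold changes and none passed. Oas2 (chromosome 5, 120730333 to 120749853) stood at 4.54, 4.17 and 2.61 CPM in knockouts, against 5.24, 5.21 and 6.17 CPM in controls. The groups did not overlap, and its log2 fold change of -0.56 ± 0.25 (SE, edgeR adjusted p = 0.502) was the most negative of the tested members. It was -0.35 without knockout library 3. Oas1a stood at -0.37 ± 0.36 (log2, SE), and its transcript matched Oas1g at 97.6% identity over 1861 bases. Oasl2, a synthetase-like gene, stood at 5.48, 3.65 and 3.62 CPM in knockouts, against 5.30, 3.55 and 6.90 CPM in controls. Its groups overlapped (-0.30 ± 0.30, log2, SE), as did those of Oasl1 (0.17 ± 0.43). Oas3 had 4, 3 and 1 counts in knockouts, against 4, 7 and 4 in controls, and was not tested.

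Among the other antiviral effectors no direction was shared. Bst2 stood at 26.0, 12.3 and 11.5 CPM in knockouts, against 11.8, 14.4 and 19.2 CPM in controls. Knockout library 1 was the highest of all, and the log2 fold change was 0.13 ± 0.33 (SE) with it and -0.35 without it. Rsad2, which encodes viperin, an inhibitor of viral RNA synthesis, stood at 12.9, 14.99 and 16.1 CPM in knockouts, against 11.8, 12.4 and 18.3 CPM in controls (0.05 ± 0.20, log2, SE). Isg20, an RNA exonuclease, stood at -0.12 ± 0.28. The dynamin-like GTPases Mx1 and Mx2 are defective in many inbred mouse strains, and the annotation lists Mx2 as a polymorphic pseudogene. Mx1 had 1, 5 and 10 counts in knockouts, against 7, 4 and 10 in controls, and Mx2 had 10, 9 and 9 counts, against 7, 7 and 6. In CPM the knockouts lay above the controls for Mx2 and overlapped with them for Mx1. Neither passed the low-count filter, and their transcripts match at 95.3% identity over 843 bases.

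The GTPases induced by interferon gamma act on vacuoles that hold pathogens, and 4 of the 5 had a negative log2 fold change without passing. Gbp7 stood at 16.4, 19.4 and 15.8 CPM in knockouts, against 18.8, 18.7 and 19.9 CPM in controls (-0.16 ± 0.14, log2, SE). Gbp2 stood at 0.09 ± 0.14 and Gbp3 at -0.14 ± 0.16, with 95% intervals of -0.23 to 0.42 and -0.50 to 0.23. Irgm1 stood at 8.597, 6.39 and 6.12 CPM in knockouts, against 8.598, 7.51 and 7.51 CPM in controls (-0.16 ± 0.19, log2, SE). Igtp (chromosome 11, 58199556 to 58207591) stood at 9.48, 4.30 and 4.33 CPM in knockouts, against 7.24, 7.39 and 8.92 CPM in controls. Knockout libraries 2 and 3 were below all controls and library 1 was above them.

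Igtp was the member whose call turned on 1 library. With all 6 libraries its log2 fold change was -0.38 ± 0.32 (SE, edgeR adjusted p = 0.734), and without knockout library 1 it was -0.86 (adjusted p = 0.0372). Over 13 alternatives its adjusted p ran from 0.0372 to 0.924, and 1 of them called it. In the annotation Igtp overlaps Irgm2, a gene of the same family on the same strand, over 7974 bases. Irgm2 stood at 9.68, 7.89 and 8.49 CPM in knockouts, against 12.3, 10.7 and 16.02 CPM in controls, with groups that did not overlap (log2 fold change -0.58 ± 0.19, SE, edgeR adjusted p = 0.336). Irgm2 was named after its values were seen.

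None of the 3 genes of antigen processing separated the genotypes. Psmb8 and Psmb9 encode subunits of the immunoproteasome, and Tap1 encodes a chain of the peptide transporter that loads MHC class I. Tap1 stood at 9.95, 7.69 and 9.38 CPM in knockouts, against 9.31, 8.31 and 14.3 CPM in controls (-0.24 ± 0.23, log2, SE). Control library 3 was its highest library, and the log2 fold change was -0.0005 without that library and -0.40 without control library 2. Psmb9 stood at 6.23, 2.22 and 3.68 CPM in knockouts, against 3.83, 4.41 and 5.29 CPM in controls, with the highest and the lowest values both in knockouts. Psmb8 stood at -0.07 ± 0.27 and Psmb9 at -0.16 ± 0.36 (log2, SE). Psmb9 and Tap1 overlap by 212 bases on opposite strands, and counting is not stated to use strand.

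Of the 6 other induced genes beside Ifi27, all had negative log2 fold changes and none passed. Parp9 (chromosome 16, 35938470 to 35972605), an ADP-ribosyltransferase that works with the ubiquitin ligase Dtx3l, stood at 7.45, 8.47 and 7.72 CPM in knockouts, against 9.48, 9.91 and 11.5 CPM in controls. The groups did not overlap, and the log2 fold change was -0.38 ± 0.16 (SE, edgeR adjusted p = 0.45), with -0.45 to -0.33 over 13 alternatives. Parp9 shares 367 bases at 100% identity with Dtx3l on the opposite strand. Parp14, a large relative of Parp9, stood at -0.10 ± 0.20 (log2, SE), with knockout library 1 at 10.2 CPM and the other 5 libraries between 15.5 and 16.95 CPM. Ifi44 stood at -0.33 ± 0.30, Xaf1, which promotes cell death, at -0.25 ± 0.20, Ifi35 at -0.23 ± 0.19 and Rtp4, a receptor transporter, at -0.11 ± 0.21.

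Many members were highest in control library 3. Of the 35 tested members 15 (42.9%) were highest there, against 14.6% of all tested genes, and none was lowest there, against 13.5% of all tested genes. Knockout library 1 held the highest value of 10 members (28.6%), close to the 28.2% of all tested genes, and the lowest of 8 (22.9%), close to 24.3%. The median deviation from the control mean on the log2(CPM + 0.5) scale was 0.02, -0.24 and -0.27 in knockout libraries 1 to 3, against -0.02, -0.08 and 0.14 in control libraries 1 to 3. For all tested genes that median was between -0.01 and 0.01 in all libraries. Without Ifi27, the members' summed level was 291, 260 and 256 CPM in knockouts, against 275, 269 and 325 CPM in controls.

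**Figure D3:**
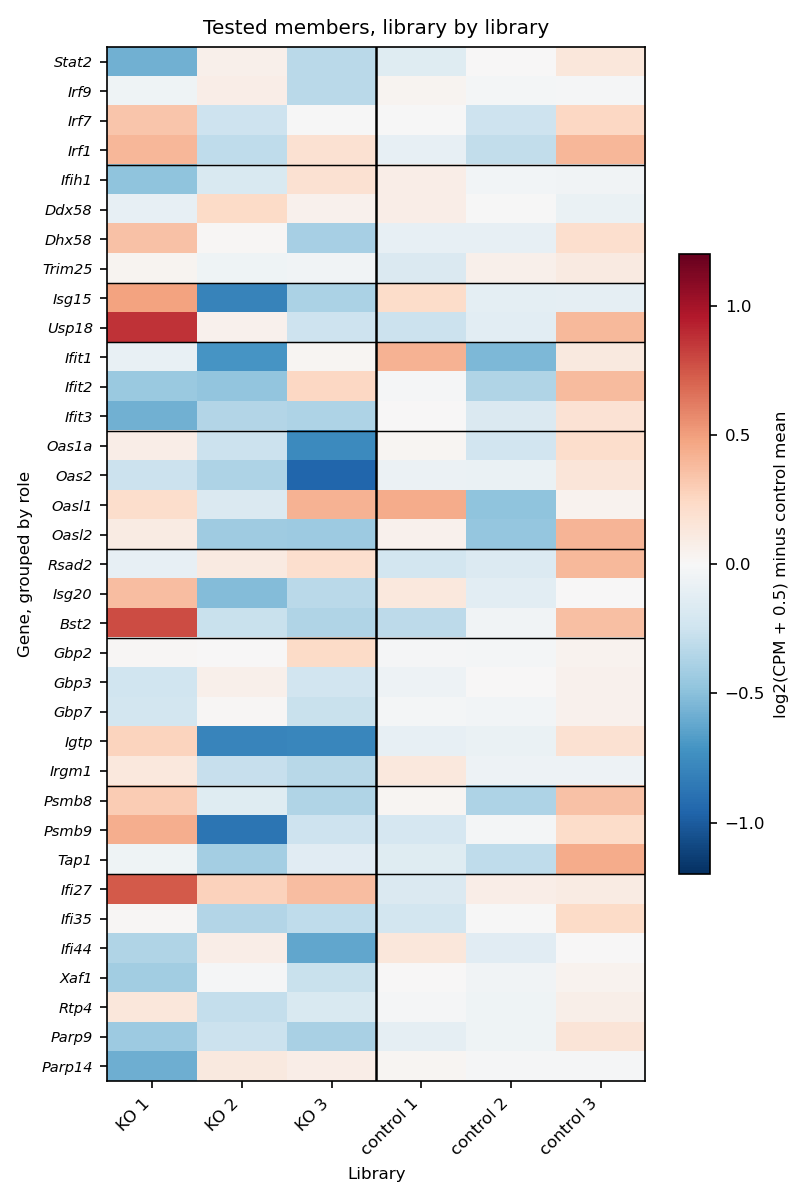
Deviation of each tested member from its control mean on the log2(CPM + 0.5) scale, with knockout libraries in the left 3 columns and control libraries in the right 3 columns. Knockout libraries 2 and 3 are mostly blue (lower), with medians of -0.24 and -0.27, and knockout library 1 holds red cells for Usp18, Bst2 and Ifi27.

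Knockout library 1 differed from the other knockouts along gene length. The 10 members highest in it had a median exon length of 2076 bases, and the 8 members lowest in it one of 5399 bases, against 3776 bases for the 35. Across the 35 members, the difference between knockout library 1 and the mean of libraries 2 and 3 had a Spearman rho of -0.56 with exon length. All these points share the same 3 libraries. Across 14754 tested genes of known length that rho was -0.43, so that the relation was present throughout the table. Isg15, with 756 bases, and Bst2, with 903 bases, were among the members most raised in that library, and Parp14, with 9306 bases, was the most reduced. Its part in the members' values was not tested.

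**Figure D4:**
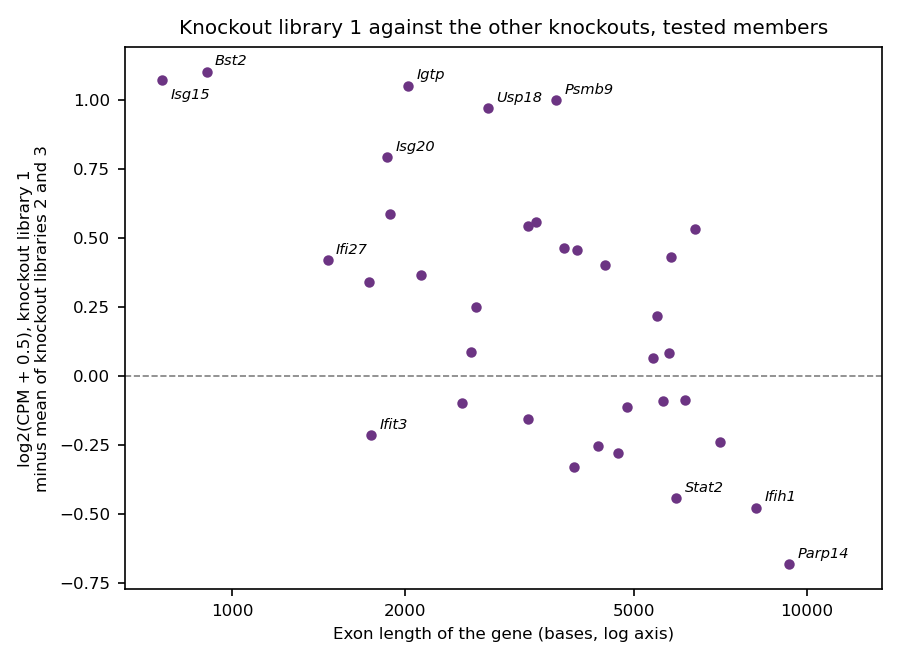
Difference in log2(CPM + 0.5) between knockout library 1 and the mean of knockout libraries 2 and 3, plotted against exon length in bases on a log axis, 1 point per tested member. Short members such as Isg15 and Bst2 lie near 1.1 and the longest, Parp14, lies at -0.68, with a Spearman rho of -0.56 over 35 genes.

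The summed level of 12 macrophage markers was 165, 84.4 and 76.4 CPM in knockouts, against 159, 98.5 and 186 CPM in controls, and knockout libraries 2 and 3 were the lowest of the 6. All 12 were tested and none was called, and 11 had a negative log2 fold change. The summed level of 9 fibroblast markers was 518, 374 and 321 CPM in knockouts, against 843, 565 and 775 CPM in controls, with no overlap. All 9 had a negative log2 fold change, and none was called. Singly, 5 of the 9 had all knockouts below all controls, against 10.8% of all tested genes. Endothelial markers summed to 754, 957 and 829 CPM in knockouts, against 737, 778 and 933 CPM in controls. Lymphocyte markers were low, at 3.18 to 4.81 CPM in knockouts, against 5.65 to 6.70 CPM in controls for 16 genes. Only 3 of the 16 passed the low-count filter, with 1 positive and 2 negative log2 fold changes, and none was called. Neutrophil markers summed to 0.913 to 1.54 CPM in knockouts, against 0.917 to 1.68 CPM in controls for 7 genes, of which 1 was tested and not called. Dendritic cell markers summed to 17.3 to 22.7 CPM in knockouts, against 15.7 to 20.0 CPM in controls, and 6 of the 8 were too low to be tested. Zbtb46 alone made up most of that sum in every library. It stood at 13.54, 15.71 and 20.37 CPM in knockouts, against 14.96, 12.49 and 15.75 CPM in controls, with overlapping groups. The part of these cells in the members' values was not tested.

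**Figure D5:**
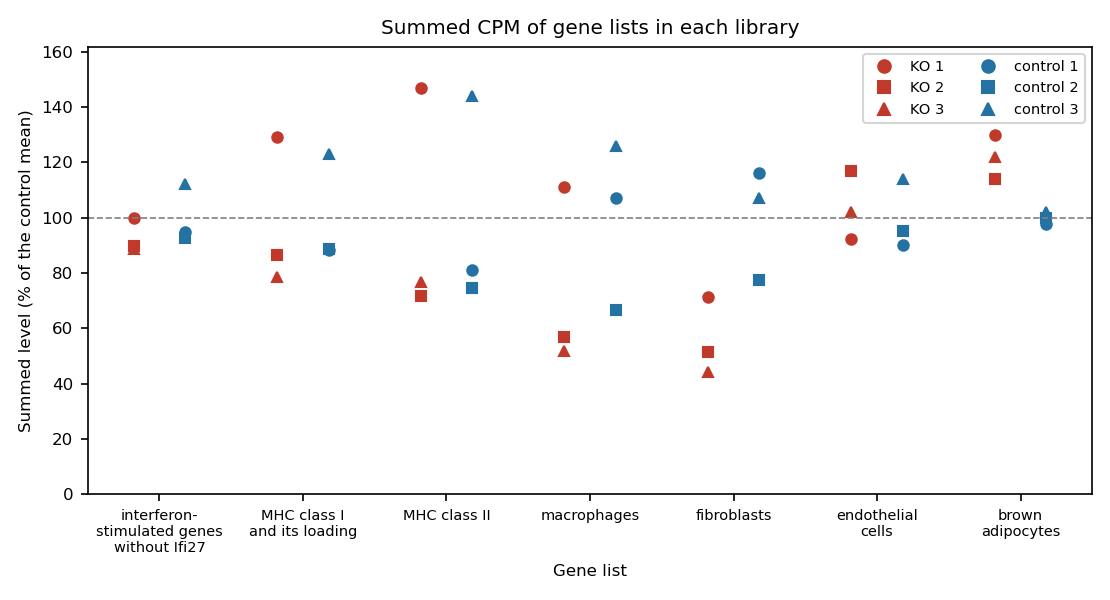
Summed CPM of 7 gene lists in each library as a percent of the mean of the 3 controls, with knockout libraries in the left column and control libraries in the right column of each list. MHC class II is at 147% in knockout library 1 and 144% in control library 3 and between 71.6% and 81.1% in the other 4 libraries, while fibroblast markers lie below all controls in all knockouts and brown adipocyte markers above them.

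The rest of the pathway was read from 128 further genes. Of these 94 were tested, 0 were called in either direction by edgeR, 30 had a positive log2 fold change and 64 a negative one, with a median of -0.11. At an unadjusted p under 0.05, 0 were higher and 7 lower (7.45%), close to the 7.6% of all tested genes that were lower. Of the 94 tested, 4 had all knockouts above all controls, against 7.63% of all tested genes. All knockouts lay below all controls for 12 of the 94, against 10.8% of all tested genes. Interferon transcripts themselves were all but absent. Of 21 ligand genes, 17 had no count in any library, Ifnb1 and Ifng among them, and the others had 15 counts in all over the 6 libraries. A count of 0 allows up to 3 counts, or between 0.172 and 0.203 CPM in a library.

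Of the 6 receptor genes 5 were tested, as were the kinases Jak1, Jak2 and Tyk2, and none was called. Ifnar2 stood at 96.1, 72.7 and 71.1 CPM in knockouts, against 63.5, 63.0 and 65.6 CPM in controls, with groups that did not overlap (log2 fold change 0.32 ± 0.14, SE, edgeR adjusted p = 0.491). Il10rb, which serves the type III interferon receptor and that of interleukin 10, also had all knockouts above all controls (0.29 ± 0.13, edgeR adjusted p = 0.499). Jak2, a kinase of the interferon gamma receptor, stood at 15.1, 18.1 and 14.8 CPM in knockouts, against 20.3, 24.1 and 18.2 CPM in controls (-0.38 ± 0.16, edgeR adjusted p = 0.462). All its knockouts lay below all controls, with knockout library 2 just below the lowest control. Jak1 stood at -0.10 ± 0.14.

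The adaptors and brakes of the pathway included some of the lower unadjusted p values. Ikbke, a kinase that activates interferon regulatory factors, stood at 0.609, 1.11 and 0.594 CPM in knockouts, against 2.53, 1.43 and 1.74 CPM in controls (log2 fold change -1.30 ± 0.40, SE, edgeR adjusted p = 0.312). Mavs, the mitochondrial adaptor of the RNA sensors, stood at 122, 132 and 147 CPM in knockouts, against 103, 111 and 119 CPM in controls (0.26 ± 0.13, log2, SE). The groups of both genes did not overlap. Samhd1, an enzyme that degrades deoxynucleotides, stood at 13.1, 14.8 and 13.5 CPM in knockouts, against 20.0, 16.3 and 23.3 CPM in controls (-0.52 ± 0.16, edgeR adjusted p = 0.315). Socs3, a feedback inhibitor of cytokine receptors, stood at 3.05, 1.11 and 1.07 CPM in knockouts, against 2.71, 4.81 and 6.43 CPM in controls (-1.42 ± 0.49, edgeR adjusted p = 0.364). Here knockout library 1 lay within the controls. Ptpn11, a phosphatase that acts on cytokine signalling, stood at 0.07 ± 0.14.

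Genes of antigen display overlapped between genotypes. H2-D1, a heavy chain of MHC class I, stood at 338, 211 and 195 CPM in knockouts, against 217, 218 and 327 CPM in controls (-0.03 ± 0.25, log2, SE). Cd74, the invariant chain of MHC class II, stood at 86.4, 44.9 and 47.2 CPM in knockouts, against 51.6, 47.1 and 98.5 CPM in controls (-0.14 ± 0.34). In both genes knockout library 1 and control library 3 were the high libraries. Of the other genes with the smallest p, Psme2, a proteasome activator, stood at 0.28 ± 0.17 and H2-Q7 at -0.51 ± 0.35, and H2-DMa and H2-Eb1 of class II stood at 0.30 ± 0.32 and 0.18 ± 0.33 (log2, SE). None of the 21 genes listed for MHC class I, its loading and MHC class II was called.

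Among 42 further interferon-induced genes tested, Gbp11 had the smallest p of the pathway. It stood at 0.271, 0.0652 and 0.416 CPM in knockouts, against 1.47, 1.55 and 4.49 CPM in controls, a log2 fold change of -3.25 ± 0.69 (SE, edgeR adjusted p = 0.158). Gbp10 stood at 1.01, 0.522 and 0.119 CPM in knockouts, against 2.36, 1.89 and 1.74 CPM in controls (-1.86 ± 0.58, edgeR adjusted p = 0.317). The groups of both did not overlap. The annotation lists Gbp11 as a polymorphic pseudogene. Gbp10 matches Gm43302 at 99.2% identity over 3451 bases and Gbp6 at 99.2% over 3131 bases. Gbp11 matches Gbp8 at 95.9% over 702 bases, so that the low counts of Gbp10 and Gbp11 are uncertain. Slfn5 stood at 0.06 ± 0.15 (log2, SE).

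In the 14 tested members with the ISRE core in the promoter window the median log2 fold change was -0.16, with 10 negative. In the 14 tested members with a promoter entry and no such match it was -0.14, with 11 negative. The medians lay within 0.02 of each other.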

How the data were processed

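The deposited table holds the authors' estimated counts, which are not normalized and not all whole, judged from its values. The submitters' processing notes name StringTie, Salmon, edgeR and the build GRCm38. Tool versions, annotation release and strand setting were not found in the labels. GENCODE vM21 (GRCm38) gave symbols and positions for 54131 of 54385 identifiers.

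The series' own design text speaks of a different depot and of quadruplicates, so groups, tissue and cold exposure were taken from the sample labels. Nothing states separate litters or days, so p-values measure the spread between these 6 libraries.

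Estimated counts were rounded. Genes passing filterByExpr (minimum count 10, minimum total 15) were tested with edgeR 4.0.16 in R 4.3.3. The test was the two-sided quasi-likelihood F test with TMM scaling, genotype only, and a Benjamini-Hochberg adjusted p under 0.05. The fit was also run on simulated data, where the pass mark concerned only large changes at a low spread. CPM uses TMM-scaled library sizes, and standard errors are the log2 fold change over the root of F. Deviations use log2(CPM + 0.5). Alternatives used limma 3.58.1 and DESeq2 1.42.0. Transcripts were compared with blastn 2.17.0 (at least 95% identity over 200 bases). Within each group, every pair of libraries differed beyond sampling noise. Intervals and floors cover counting error or library spread only.

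Members and lists were chosen with earlier results of these data known. Values per library are given for members whose groups do not overlap and for the member of highest mean CPM in each role; outside the members, the 2 genes of smallest p and the 1 of highest mean CPM per list are named. Per-library values of other members were added after their values were seen. One pathway gene outside the members is not reported here.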

Additional observations from a re-analysis of the deposited data

How the results depend on the processing

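Of the 35 tested members, 0 were called higher under any of 13 alternatives and 0 lower under 12, the exception being Igtp without knockout library 1, so that leaving out single libraries gave 0 to 1 lower. Over all genes the counts moved more. Against 4 higher and 5 lower, DESeq2 called 31 and 276, limma-voom 6 and 27, and the fit with no filter on low counts 111 and 782. Leaving out single libraries gave 3 to 45 higher and 1 to 812 lower, the largest counts without knockout library 1. The replicate block called 2 and 2. Replicate numbers share only a number: correlations of same-numbered deviations were 0.07, 0.11 and 0.05, although every library correlated best with its own number. The members' median log2 fold change was -0.21 to -0.08 with single libraries left out. Adcy3 stayed called in all 13, at -2.74 to -2.50. The sign turned in 16 members without passing, all with sizes up to 0.32 (log2), and the cause was not tested. Dhx58 was at -0.02 under limma-voom and -0.01 with the replicate block. With single libraries left out the ranges were -0.19 to 0.02 for Irf9, -0.14 to 0.17 for Irf7, -0.07 to 0.29 for Irf1, -0.36 to 0.01 for Ifih1, -0.02 to 0.15 for Ddx58, -0.20 to 0.20 for Dhx58, -0.12 to 0.00 for Trim25 and -0.78 to 0.13 for Isg15. They were -0.13 to 0.56 for Usp18, -0.14 to 0.53 for Oasl1, -0.07 to 0.25 for Rsad2, -0.47 to 0.06 for Isg20, -0.35 to 0.34 for Bst2, -0.30 to 0.10 for Psmb8, -0.60 to 0.13 for Psmb9 and -0.22 to 0.10 for Parp14. Of the 19 members that kept their sign with single libraries left out, 16 moved by over 1.5 times, Ifit1, Ifit2 and Tap1 among them. The others ran over -0.46 to -0.12 for Stat2, -0.66 to -0.11 for Oas1a, -0.71 to -0.35 for Oas2, -0.54 to -0.10 for Oasl2, 0.01 to 0.13 for Gbp2, -0.25 to -0.08 for Gbp3 and -0.25 to -0.10 for Gbp7, and over -0.86 to -0.19 for Igtp, -0.33 to -0.07 for Irgm1, -0.35 to -0.14 for Ifi35, -0.60 to -0.15 for Ifi44, -0.38 to -0.15 for Xaf1 and -0.26 to -0.02 for Rtp4. Ifit3, Ifi27 and Parp9 moved by less. Low counts, as for Oasl1 with 12 to 30 per library, limit what could be seen.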
